A study of Caenorhabditis elegans with 6 samples.

Results

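The genes described here are 10 cuticle collagens of Caenorhabditis elegans named for the body shape of their mutants: rol-6, sqt-1, sqt-2, sqt-3, dpy-4, dpy-5, dpy-13, dpy-17, bli-1 and bli-2. They were chosen by gene name as collagens outside the furrow group. All 10 were among the 22416 genes with counts, and all 10 passed the filter on low counts that left 15519 genes for testing. RNA came from pools of whole worms of strain CL2006, collected on day 6 of adulthood in the second generation at 20 °C. Every worm carried pCL12, a minigene that makes the human Abeta peptide 1-42 from the promoter of the muscle myosin gene unc-54, and pRF4, the roller marker plasmid with a mutant rol-6 gene. The libraries labelled gtr-1 RNAi came from worms fed HT115 bacteria making double-stranded RNA against the gtr-1 3' untranslated region. The control libraries came from worms fed HT115 with an empty vector. Each treatment had 3 libraries, 1 in each of batches 2, 3 and 4. The labels do not say what a batch was, and p-values rest on no replication beyond these 3 pairs. In edgeR and DESeq2 the spread of each gene was also moderated by that of other genes. Total counts ran from 43067539 to 59812227 per library.

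The worm's cuticle is a collagen exoskeleton made by the epidermis and rebuilt at every larval molt. Its surface is ringed by annuli separated by furrows, and the adult cuticle adds a fluid layer crossed by struts. Cuticle collagens are short secreted proteins with Gly-X-Y repeats, cut by proteases and cross-linked outside the cell. Their transcripts are known to pulse once per larval stage, ahead of each molt. Loss of annular collagens such as DPY-13 gives short, fat (dumpy) worms. Loss of the strut collagens BLI-1 and BLI-2 lets the layers part into blisters. Altered ROL-6 or SQT-1 twists the body so that worms roll.

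In the worm genome (WBcel235), 5 of the 10 genes lie on chromosome II. These are rol-6 (8733050 to 8734239, plus strand), sqt-1 (11336693 to 11337837, minus strand), sqt-2 (23325 to 24458, plus strand), bli-1 (10708960 to 10712156, plus strand) and bli-2 (5651394 to 5652434, minus strand). On chromosome IV lie dpy-4 (14985543 to 14986784, minus strand) and dpy-13 (4235614 to 4236710, plus strand). sqt-3 is on chromosome V (12352745 to 12354320, plus strand), dpy-17 on chromosome III (5107330 to 5108492, plus strand) and dpy-5 on chromosome I (5432197 to 5433051, minus strand). The genes are compact, with 1 exon in dpy-5 and up to 5 in bli-1. Their annotated proteins have 284 residues (DPY-5) to 352 residues (DPY-17), except BLI-1 with 948. Exons of bli-1 overlap exons of dph-2, and those of sqt-3 overlap a noncoding RNA gene, F23H12.13, each on the opposite strand. The sources used here do not say whether the authors' counting used the strand, so the counts of bli-1 and sqt-3 are less certain. dpy-4 and bli-2 overlap the spans of atln-2 and zyg-1 but share no exon with them.

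The libraries labelled gtr-1 RNAi did not show less of the target: gtr-1 had 38, 26 and 11 counts there in batches 2, 3 and 4, against 32, 16 and 12 with the empty vector. The treated libraries are therefore named by their label, and each direction below rests on it. Both batch 2 libraries stood apart in the genes of the larval molting cycle, listed to look for larvae left in a pool of adults. Of 14 such genes, 13 were higher in both batch 2 libraries than in any other library, where 34.6% of all genes tested were. It was also so for 10 of 14 epidermis genes and 10 of 10 sperm genes. The molting genes summed to 632.3, 438.2 and 367.0 CPM (counts scaled to library size, by the TMM method) under the gtr-1 RNAi label in batches 2, 3 and 4, against 762.8, 277.1 and 272.4 CPM with the empty vector. None of the 14 molting genes was at 0 in any library.

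The 10 collagens fell into patterns that can be read from their levels alone. rol-6 was nearly level over all libraries. The other 9 varied 5.27-fold (dpy-17) to 128-fold (bli-1) between their highest and lowest library, and for 8 of them both batch 2 libraries were above every other library. Such a separation of batch 2 was seen in 34.6% of all genes tested. In no member were all gtr-1 RNAi libraries above all empty vector libraries, which was the case for 2.92% of genes tested.

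**Figure D1:**
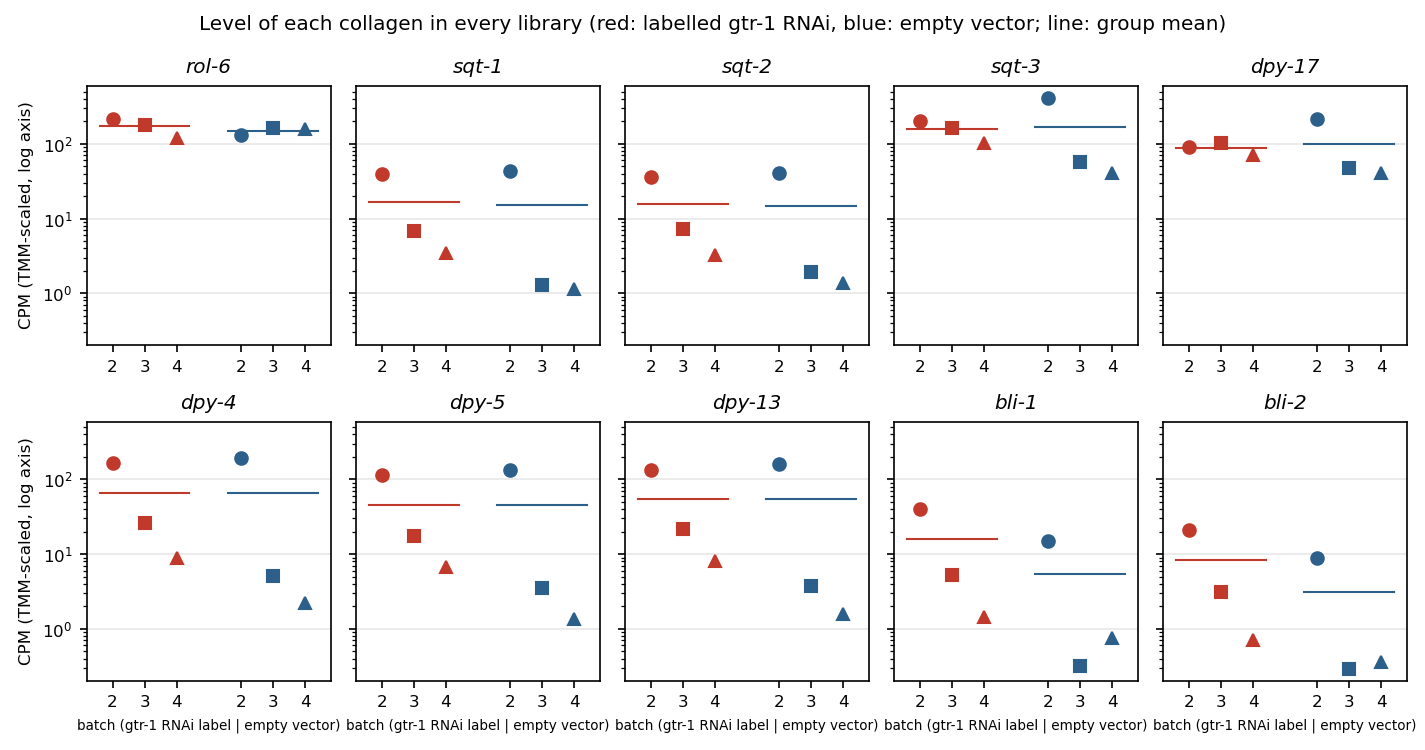
Level of each of the 10 collagens in CPM on a log axis, with 1 point per library (circle, square and triangle for batches 2, 3 and 4), libraries labelled gtr-1 RNAi in red on the left of each panel and empty vector libraries in blue on the right; lines are group means. rol-6 stays between 121 and 215 CPM, while dpy-13 spans 1.60 to 159 CPM with both batch 2 libraries at the top.

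rol-6, the roller collagen carried both by chromosome II and by the marker plasmid, had 215, 181 and 121 CPM under the gtr-1 RNAi label in batches 2, 3 and 4, against 132, 161 and 159 CPM with the empty vector. The groups overlapped, with the highest and the lowest value both under the gtr-1 RNAi label. The mean was 173 ± 47.5 CPM there and 150.3 ± 16.2 CPM with the empty vector (SD, n = 3 each). Within batches the log2 difference was 0.71, 0.18 and -0.39. Exact two-sided permutation of the log2 level gave p = 0.75 over pairs, where 0.25 is the smallest possible, and p = 0.5 over groups, where 0.1 is. Reads of the plasmid copies and of the chromosomal gene cannot be told apart in gene counts.

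sqt-1, whose product is known to act with ROL-6 in giving the roller shape, followed the batches instead. It had 39.4, 6.72 and 3.43 CPM under the gtr-1 RNAi label in batches 2, 3 and 4, against 43.2, 1.29 and 1.16 CPM with the empty vector. sqt-2, another collagen with roller alleles, had 36.1, 7.33 and 3.24 CPM there, against 40.2, 1.95 and 1.37 CPM with the empty vector. In both genes the batch 2 libraries were alike, and the gtr-1 RNAi label was the higher one in batches 3 and 4. Per kilobase of exon, rol-6 stood 5.23, 25.9 and 33.9 times above sqt-1 under the gtr-1 RNAi label, against 2.92, 119.5 and 131.6 times with the empty vector.

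The annular collagens dpy-4, dpy-5 and dpy-13, whose mutants are dumpy, moved as a unit. dpy-13 had 134, 21.7 and 8.19 CPM under the gtr-1 RNAi label in batches 2, 3 and 4, against 159, 3.70 and 1.60 CPM with the empty vector. dpy-5, a collagen cut by the BLI-4 protease, had 113, 17.5 and 6.76 CPM there, against 132, 3.48 and 1.35 CPM with the empty vector. The level of dpy-4 was 164, 26.1 and 9.01 CPM under the gtr-1 RNAi label, against 192, 5.08 and 2.25 CPM with the empty vector. In all 3 genes the order of the 6 libraries was the same, from the batch 2 empty vector library at the top to the batch 4 empty vector library at the bottom. That order was not particular to them, as sqt-1, sqt-2, sqt-3 and the furrow collagens also had it. Per kilobase of exon the ratio of dpy-5 to dpy-13 stayed between 0.931 and 1.09 in all 6 libraries, and that of dpy-4 to dpy-13 between 1.08 and 1.39, while dpy-13 itself ranged 99.2-fold. These ratios describe the same 6 libraries and carry no test.

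sqt-3 and dpy-17 shared another pattern. The SQT-3 and DPY-17 collagens are known to depend on each other for secretion, and SQT-3 is trimmed by the DPY-31 protease. sqt-3 had 205, 165 and 102 CPM under the gtr-1 RNAi label in batches 2, 3 and 4, against 414, 57.2 and 40.8 CPM with the empty vector. dpy-17 had 89.9, 104.0 and 70.7 CPM there, against 213, 47.2 and 40.4 CPM with the empty vector. The batch 2 empty vector library was far above all others in both genes. The libraries labelled gtr-1 RNAi differed less among themselves. Neither gene was under 40.4 CPM in any library. Their ratio per kilobase, sqt-3 to dpy-17, ran from 0.789 to 1.78. The ratio of sqt-3 to dpy-13 ran much wider, at 1.06, 5.29 and 8.66 under the gtr-1 RNAi label in batches 2, 3 and 4, against 1.81, 10.8 and 17.7 with the empty vector.

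The strut collagens bli-1 and bli-2 had the lowest levels per kilobase of exon in every library. bli-1 had 40.3, 5.32 and 1.44 CPM under the gtr-1 RNAi label in batches 2, 3 and 4, against 15.03, 0.316 and 0.757 CPM with the empty vector. bli-2 had 21.2, 3.14 and 0.713 CPM there, against 8.79, 0.292 and 0.358 CPM with the empty vector. They were the only members higher under the gtr-1 RNAi label in all 3 batch pairs, 2 of 10, where 13.5% of genes tested were. The lowest values rest on few reads. In batch 3 the empty vector library had 13 counts of bli-1, with an exact Poisson 95% interval of 6.92 to 22.2, and 12 counts of bli-2, with an interval of 6.20 to 20.96. In batch 4 the intervals of bli-2 overlapped between the treatments, at 0.502 to 0.982 CPM for the library labelled gtr-1 RNAi and 0.208 to 0.573 CPM for the empty vector library. Intervals cover counting error only. The ratio of bli-1 to bli-2 per kilobase stayed between 0.358 and 0.699. BLI-6 is a further collagen of the struts. Its gene bli-6 had 67.5, 8.33 and 2.64 CPM under the gtr-1 RNAi label and 36.9, 1.99 and 1.24 CPM with the empty vector, also higher in all 3 pairs. Being higher in all 3 pairs was not particular to strut collagens. Of 127 numbered col collagens tested, 57 were higher in all 3 pairs and 6 were lower in all 3. Of all 15519 genes tested, 2095 were higher in all 3 and 3502 lower.

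**Figure D2:**
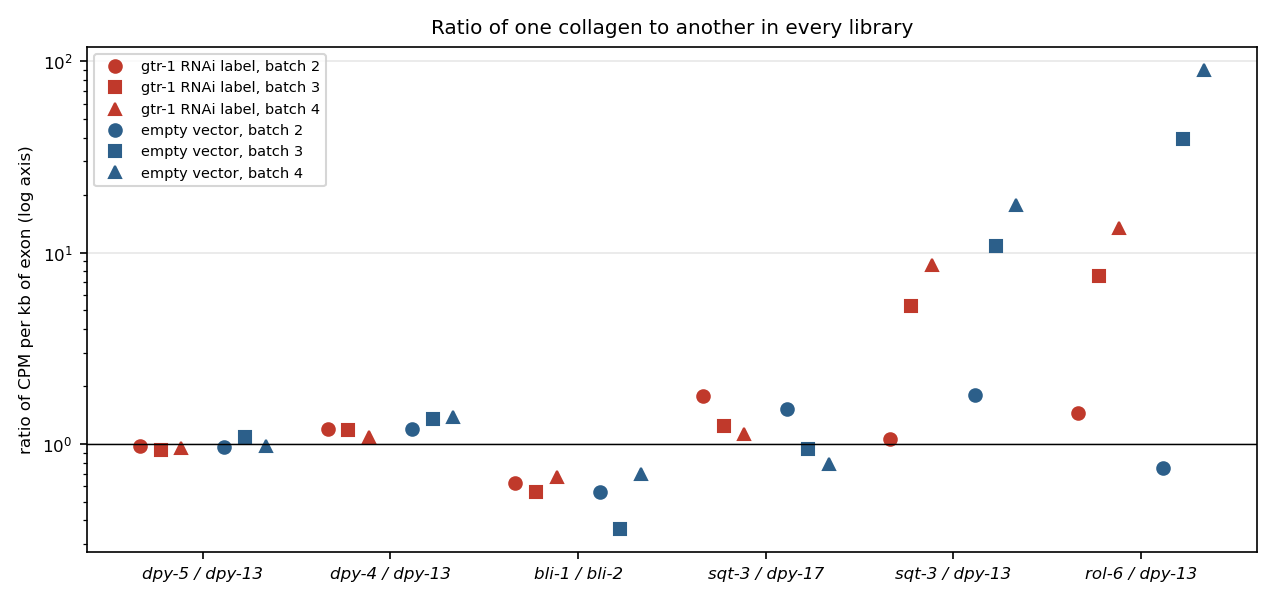
Ratio of the CPM per kilobase of exon of one collagen to another, on a log axis, with 1 point per library (colour for treatment, shape for batch) for 6 gene pairs. The ratios of dpy-5 and dpy-4 to dpy-13 stay within 0.931 to 1.39, whereas that of rol-6 to dpy-13 runs from 0.754 to 90.2.

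The order of levels per kilobase of exon also depended on the batch. In the 4 libraries of batches 3 and 4, rol-6 was highest, at 111 to 167 CPM per kilobase, followed by sqt-3 and dpy-17, whose order changed between libraries. Then came dpy-4, ahead of dpy-5 and dpy-13, which did not separate. sqt-1 and sqt-2 were next and did not separate either, and bli-2 and bli-1 were last. In the batch 2 library labelled gtr-1 RNAi rol-6 was also highest, at 198 CPM per kilobase. In the batch 2 empty vector library sqt-3 was highest at 291 CPM per kilobase and rol-6, at 121, was the 6th of the 10. Per kilobase of coding sequence no gene moved by more than 2 places, but sqt-3 then exceeded rol-6 in the libraries labelled gtr-1 RNAi of batches 2 and 3.

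The first test asked whether the members differed between treatments over the 3 batch pairs. None passed the threshold. At an edgeR adjusted p under 0.05, 0 of 10 members were higher and 0 lower, where 0.0902% of genes tested were called higher and 0% lower. Before adjustment, edgeR had 2 members higher (background 4.99%) and 0 lower (5.68%) at a p under 0.05. DESeq2 called 0 members either way, where it called 1.57% of genes higher and 0.619% lower, and before adjustment it had 4 members higher (background 4.09%) and 0 lower (2.82%). All 10 log2 fold changes were above 0 in this fit, as were 41.6% of those of all genes tested, with a median of 1.17 for the members beside -0.03 for all genes. Without batch as a block 6 of the 10 were above 0 (40.5% of genes tested), and sqt-3, dpy-4, dpy-13 and dpy-17 were below it. Leaving out any 1 batch pair or library left 9 above 0. bli-1 had the largest, 1.94 ± 0.56 (SE, edgeR adjusted p = 0.351), with a 95% interval from 0.52 to 3.36, and bli-2 had 1.79 ± 0.46 (adjusted p = 0.314). dpy-13 had 1.34 ± 0.61 (edgeR adjusted p = 0.514), with an interval from -0.22 to 2.90. The smallest were dpy-17 at 0.25 ± 0.49 (edgeR adjusted p = 0.866) and rol-6 at 0.17 ± 0.20 (adjusted p = 0.774). The interval of rol-6, from -0.35 to 0.68, was the narrowest of the 10.

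The batch pairs differed. In 7 of the 10 members, namely sqt-1, sqt-2, sqt-3, dpy-4, dpy-5, dpy-13 and dpy-17, the difference was below 0 in batch 2 and above 0 in batches 3 and 4, a pattern held by 17.3% of genes tested. The batch 2 differences were small for dpy-4, dpy-5, dpy-13, sqt-1 and sqt-2, at -0.13 to -0.24 on the log2 scale. They were larger for sqt-3 (-1.02) and dpy-17 (-1.24), and above 0 for bli-1 (1.42) and bli-2 (1.27). In batch 3 all 10 were above 0, up to 2.54 for dpy-13, 3.27 for bli-2 and 3.92 for bli-1. In batch 4 the 9 members other than rol-6 were above 0, from 0.81 for dpy-17 to 2.33 for dpy-13. At least 1 log2 unit in both batch 3 and batch 4 was reached by 6 members, sqt-1, sqt-2, sqt-3, dpy-4, dpy-5 and dpy-13, and by 2.46% of genes tested. With 1 library per treatment in a batch, a difference between batches in the treatment effect cannot be tested.

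**Figure D3:**
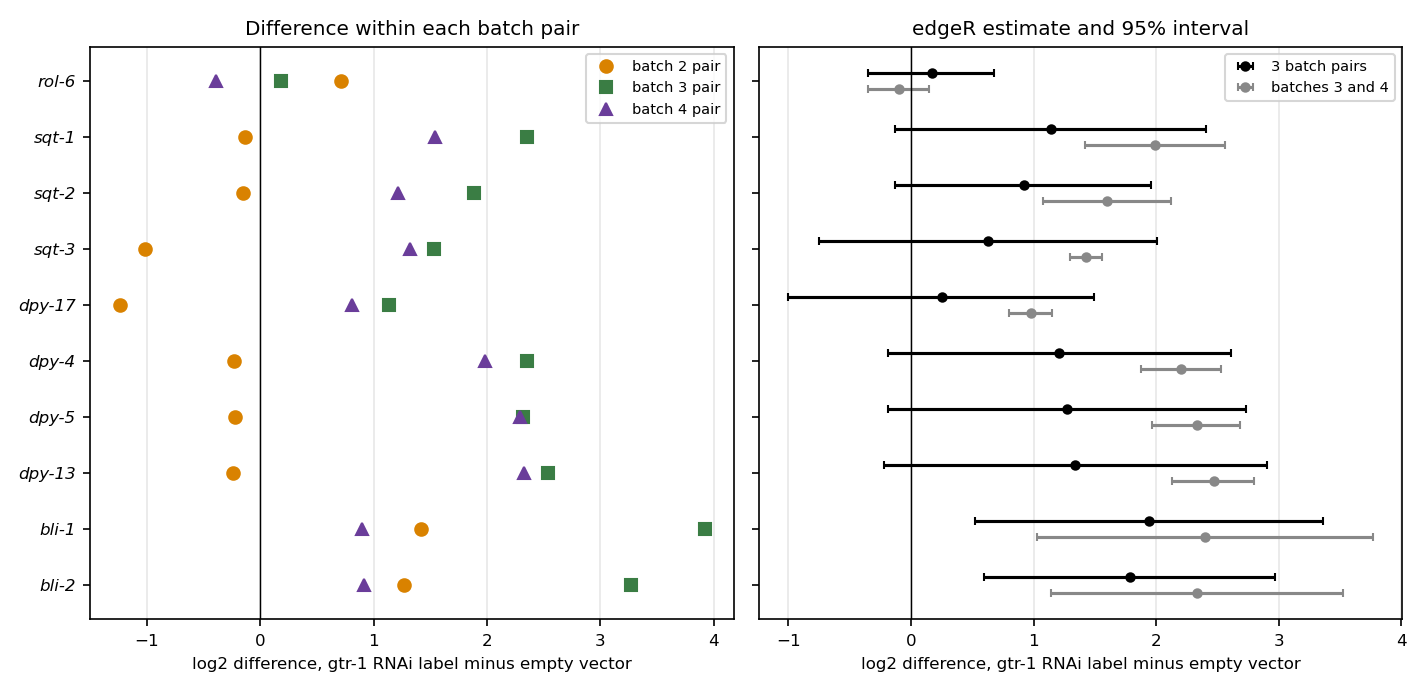
Log2 difference of each collagen, gtr-1 RNAi label minus empty vector: on the left 1 point per batch pair, on the right the edgeR estimate with its 95% interval over the 3 batch pairs (black) and over batches 3 and 4 (grey). In batch 2, 7 collagens lie below 0, from -0.13 to -1.24; without that batch the interval of dpy-13 narrows to 2.13 to 2.80.

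Without the batch 2 pair, edgeR called 8 of the 10 members higher under the gtr-1 RNAi label and 0 lower, where 4.92% of genes tested were called higher and 2.77% lower. For dpy-13 the log2 fold change was then 2.47 ± 0.14 (SE, edgeR adjusted p = 0.000167), for dpy-5 it was 2.33 ± 0.15 (adjusted p = 0.000226) and for dpy-4 2.20 ± 0.14 (adjusted p = 0.000203). sqt-3 stood at 1.43 ± 0.06 (edgeR adjusted p = 4.94e-05) and dpy-17 at 0.98 ± 0.08 (adjusted p = 0.000509). sqt-1 (1.99 ± 0.25), sqt-2 (1.60 ± 0.22) and bli-2 (2.33 ± 0.51) also passed. bli-1, at 2.40 ± 0.59, had an edgeR adjusted p of 0.0506, and rol-6, at -0.10 ± 0.11, one of 0.670. These values rest on 4 libraries and 2 pairs. Each SE and p here draws largely on a variance that edgeR shares across genes, so neither measures the spread between pairs alone. Without batch 3, 2 members were called higher (bli-1 and bli-2, background 1.05%) and 0 lower (0.501%), and without batch 4, 0 were called (background 0%).

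The next test asked whether the members differed between batches, with treatment in the model. They did in 7 of 10, at an edgeR adjusted p under 0.05, where 43.3% of genes tested did; DESeq2 also called 7 (background 41.7%). Each p of the batch term is for any difference among the 3 batches, not for batch 2 against the others. In dpy-13 the level in batch 2 was above the mean of batches 3 and 4 by 4.70 on the log2 scale (edgeR adjusted p = 0.00847 for any batch difference). The same difference was 4.67 for dpy-5, 4.65 for dpy-4, 4.17 for bli-1, 4.16 for bli-2, 4.11 for sqt-1 and 3.78 for sqt-2, each with an adjusted p under the threshold. sqt-3 (2.04, edgeR adjusted p = 0.0677), dpy-17 (1.31, adjusted p = 0.159) and rol-6 (0.14, adjusted p = 0.551) were not called. In the 9 members other than rol-6, the ratio of batch 2 to the mean of batches 3 and 4 was larger with the empty vector. rol-6 in batch 2 was 1.42 times that mean under the gtr-1 RNAi label, against 0.825 times with the empty vector. dpy-13 in batch 2 was 8.96 times its mean in batches 3 and 4 under the gtr-1 RNAi label, against 59.9 times with the empty vector.

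Other cuticle collagens were read beside the members. The median log2 fold change between treatments was 0.38 for the 6 furrow collagens, 1.22 for 5 other collagens named for mutants and 0.70 for 127 numbered col genes, against 1.17 for the members. By pair, the furrow collagens (dpy-2, dpy-3, dpy-7, dpy-8, dpy-9 and dpy-10) were all below 0 in batch 2, from -0.08 in dpy-9 to -0.79 in dpy-3, and all above 0 in batches 3 and 4. Among them dpy-8 was most like the annular members, with 13.2, 3.16 and 1.02 CPM under the gtr-1 RNAi label, against 16.1, 0.583 and 0.274 CPM with the empty vector. rol-8 and lon-3, collagens of roller and long worms, had batch differences of 4.45 and 4.29 on the log2 scale. ram-2 had 3.32, and dpy-14 1.20 (edgeR adjusted p = 0.152), close to the 1.31 of dpy-17. Between treatments bli-6 stood at 1.31 ± 0.24 on the log2 scale (SE, edgeR adjusted p = 0.175) and was the gene of these 11 that DESeq2 called higher. Of the 127 numbered col genes, edgeR called 0 (background 0.0902% higher and 0% lower). Before adjustment it had 44 higher (background 4.99%) and 4 lower (5.68%). DESeq2 called 21 higher (background 1.57%) and 2 lower (0.619%).

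The genes that process and control collagens varied far less. Of 20 named enzymes and helpers, 18 had a row, and 0 were called between treatments in edgeR or DESeq2, with a median log2 fold change of -0.03. Of all genes tested, edgeR called 0.0902% higher and 0% lower, and DESeq2 1.57% and 0.619%. Beside such shares a count of 0 in a short list says little. Before adjustment, edgeR had 1 of the 18 higher (background 4.99%) and 0 lower (5.68%). The prolyl 4-hydroxylase subunits dpy-18 and phy-2, which stabilise the collagen helix, had 0.20 ± 0.04 (SE, edgeR adjusted p = 0.196) and 0.14 ± 0.06 (adjusted p = 0.480). dpy-18 was at 77.4, 64.9 and 53.4 CPM under the gtr-1 RNAi label in batches 2, 3 and 4, against 66.8, 56.4 and 47.3 CPM with the empty vector. The thioredoxin-like dpy-11 had 0.11 ± 0.04 and the protein disulphide isomerase pdi-3 had -0.08 ± 0.04 (SE). Of 17 regulators, 0 were called by either tool, beside the same shares of all genes, with a median of -0.03. Before adjustment, edgeR had 0 of them higher (background 4.99%) and 1 lower (5.68%). sma-10, which helps the BMP-like receptors of body size, had -0.24 ± 0.07 (SE, edgeR adjusted p = 0.393), their receptor daf-4 had -0.08 ± 0.05, sma-9 had -0.08 ± 0.05 and nhr-23, a nuclear receptor of the molting cycle, had 0.06 ± 0.05. nhr-23 was lower in batch 2, with 37.8, 57.8 and 59.3 CPM under the gtr-1 RNAi label in batches 2, 3 and 4, against 37.2, 52.9 and 58.3 CPM with the empty vector. Between batches 13 of the 18 enzymes and 7 of the 17 regulators were called, where 43.3% of genes tested were. Their median differences of batch 2 over batches 3 and 4 were 0.24 and 0.39 on the log2 scale, against 4.13 for the members.

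The medians of the larval molt and epidermis lists had the members' signs in all 3 batch pairs. That of the intestine list did so in batches 3 and 4 only. The 14 larval molt genes had median differences of -0.28, 0.95 and 0.52 on the log2 scale in the pairs of batches 2, 3 and 4, with 2, 13 and 13 of them above 0, against -0.19, 2.33 and 1.27 for the members. Between batches 13 of the 14 were called, all higher in batch 2, where 18.3% of genes tested were. Without batch 2, edgeR called 10 of the 14 higher under the gtr-1 RNAi label (background 4.92%). The most abundant, noah-1, had 142, 111 and 98.4 CPM under the gtr-1 RNAi label, against 163, 77.3 and 73.7 CPM with the empty vector, and noah-2 had 105, 88.7 and 74.8 CPM, against 125, 57.2 and 54.8 CPM. The part of larvae in the collagen values was not tested. The 14 epidermis genes, which mark the tissue that makes cuticle, were all detected. They had median differences of -0.11, 0.31 and 0.12 on the log2 scale in the pairs of batches 2, 3 and 4, with 4, 13 and 11 of them above 0. They summed to 1281, 1213 and 1075 CPM under the gtr-1 RNAi label, against 1253, 1009 and 973 CPM with the empty vector. Without batch 2, edgeR called 5 of the 14 higher (background 4.92%). The 10 intestine genes had median differences of 0.07, 0.47 and 0.35 on the log2 scale in the pairs of batches 2, 3 and 4, with 5, 9 and 9 of them above 0. They summed to 3069, 2378 and 2140 CPM under the gtr-1 RNAi label, against 2396, 1626 and 1596 CPM with the empty vector. Over the 3 pairs edgeR called 0 of them either way (background 0.0902% higher and 0% lower). Before adjustment it had 4 higher (background 4.99%) and 0 lower (5.68%). DESeq2 called 4 higher (background 1.57%). Without batch 2, edgeR called 6 higher (background 4.92%). The part of the intestine in the collagen values was not tested. In pools of whole worms, fewer cells of a type and less RNA per cell cannot be told apart.

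Sperm genes also separated batch 2 but not in step with the treatment differences. The 10 sperm genes summed to 85.9, 11.8 and 4.83 CPM under the gtr-1 RNAi label in batches 2, 3 and 4, against 80.8, 18.1 and 15.9 CPM with the empty vector. In batches 3 and 4 they were thus lower under the gtr-1 RNAi label, where the collagens were higher. The 14 germline and embryo genes ran the other way between batches, at 9008, 12799 and 13146 CPM under the gtr-1 RNAi label, against 9302, 13296 and 13063 CPM with the empty vector. Epidermis, muscle, intestine and neuron lists had median batch differences of 0.48, 0.41, 0.53 and 0.45 on the log2 scale. In the pairs of batches 2, 3 and 4 the median treatment differences were -0.20, 0.10 and -0.48 for muscle genes. For neuron genes they were -0.12, 0.30 and -0.16.

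**Figure D4:**
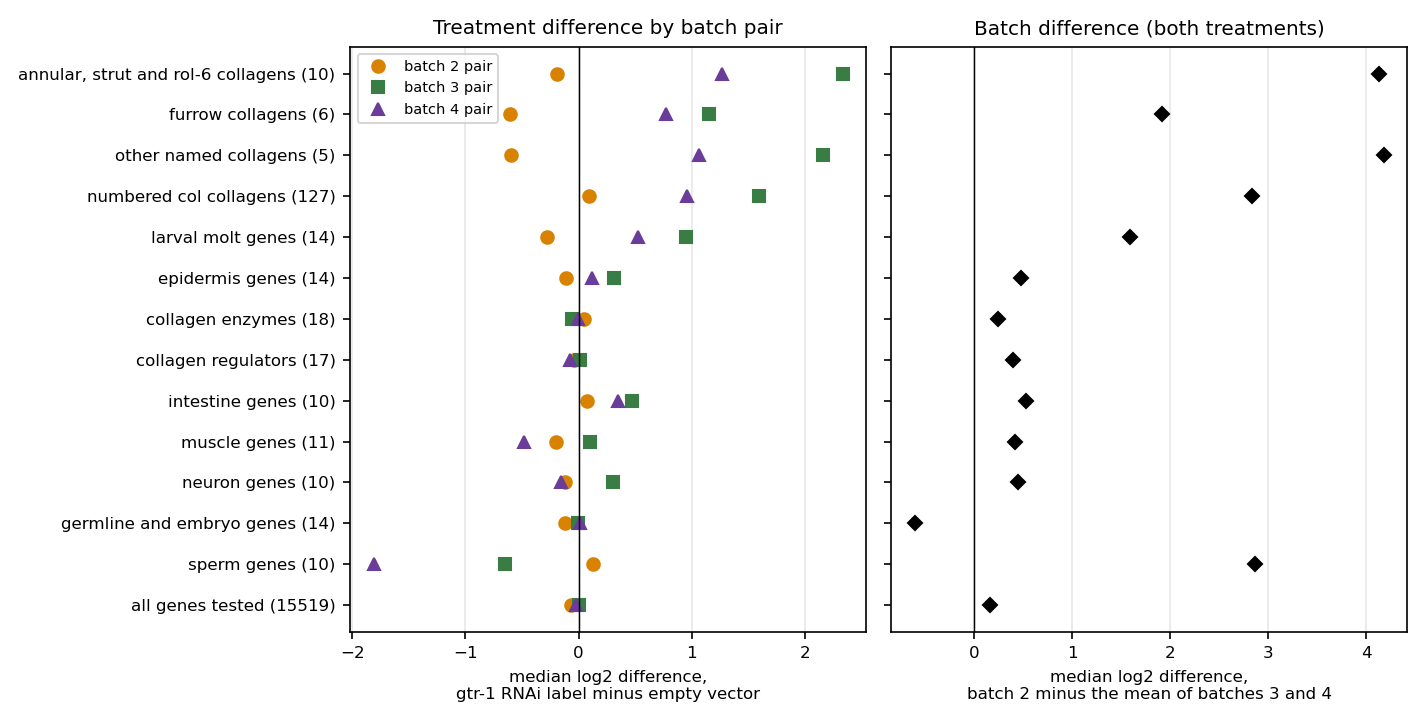
Median log2 difference of each gene list (number of tested genes in brackets): on the left gtr-1 RNAi label minus empty vector within each batch pair, on the right batch 2 minus the mean of batches 3 and 4. Cuticle collagens and larval molt genes are above 0 in batches 3 and 4, the members at 2.33 and 1.27, and the members lie 4.13 higher in batch 2.

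Genes with the most similar profile were sought among those with a mean of at least 3 on the log2 CPM scale, by Pearson's r over the 6 libraries. This cut kept sqt-1, sqt-2, bli-1 and bli-2 out of the genes compared. For dpy-13, of 7894 genes compared, F17A9.4 came first (r = 0.9999), then dpy-5 (r = 0.9996) and dpy-4 (r = 0.9991). F17A9.4 followed dpy-13 over a much smaller range, with 20.8, 15.5 and 13.4 CPM under the gtr-1 RNAi label in batches 2, 3 and 4, against 21.4, 11.9 and 10.4 CPM with the empty vector. For bli-1 the nearest of the genes compared, which leave out bli-2, were pho-11 (r = 0.997), Y49E10.18 (r = 0.993) and K06A9.1 (r = 0.991). pho-11 ranged only from 110.7 to 139.6 CPM. For rol-6 they were syx-2 (r = 0.961), C54E4.5 (r = 0.954) and ptr-8 (r = 0.954). The r of rol-6 with dpy-13 was 0.215. These r describe 6 shared libraries, of which the batch 2 libraries carry most of the variation for dpy-13 and bli-1.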

How the data were processed

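Stranded mRNA libraries were made from 6 pools of whole worms, per the labels' protocols. The submitters' processing notes name the build WBcel235 and, without settings, HTSeq 2.01, TopHat2 2.1.1, DESeq2 1.36.0 and cutadapt 2.10; the strand setting of the counting was not given in the sources used here. Counts per gene are in the table the authors deposited (22416 of 46934 rows; the rest hold no value). Its deposited normalized signal is the count over 1 constant per library. The authors' deposited batch-corrected values, another normalized kind with 43 values below 0, entered no test.

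Groups came from the sample titles. edgeR 4.0.16 in R 4.3.3 was run on the counts: filterByExpr (minimum count 10), TMM scaling and the quasi-likelihood test, with batch as a block, 2 residual and 3.16 prior degrees of freedom. P-values were adjusted by Benjamini-Hochberg over the 15519 genes tested and called under 0.05. The batch term was tested in the same fit, as any difference among the 3 batches. A standard error (SE) is the fold change on the log2 scale divided by the root of F. Differences within a pair are of log2 CPM with a prior count of 2. Lengths are from the Ensembl 115 annotation of WBcel235, which holds all 10 members. The tests were checked on simulated counts, in which edgeR recovered 52.2% of 2-fold and 92.3% of 4-fold treatment changes. In that treatment check the counts had no differences between batches, unlike these data, so it does not give the power for the members.

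The batch labels pair the libraries. Deviations from the group means correlated across genes at r = 0.706, 0.465 and 0.663 within batches 2, 3 and 4, and at -0.711 to 0.522 between batches. The 0.522 joined the batch 3 empty vector library to the batch 4 library labelled gtr-1 RNAi. It exceeded the 0.465 within batch 3, so the pairing of batch 3 rests on the labels. No library was a copy: within groups the chi-square per degree of freedom was 22.5 to 133. The members and lists were chosen with earlier results of these data known. By rule the text names all members, gtr-1, the furrow and other named collagens, the 4 genes of smallest p among enzymes and regulators, the 2 most abundant genes of each marker list (here only those of molting are printed), and the 3 genes most alike to rol-6, dpy-13 and bli-1. Alternatives were no block, other filters, DESeq2 size factors, DESeq2 1.42.0, a threshold of 0.1, and leaving out pairs or libraries.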

Additional observations from a re-analysis of the deposited data

How the results depend on the processing

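The count of members called between treatments, 0 higher and 0 lower, was the same with DESeq2 size factors, DESeq2, a minimum count of 50, no filter, no replicate block and a threshold of 0.1. Leaving out a batch pair or a library gave 0 to 8 members higher, with 8 without batch 2, 8 without its empty vector library and 7 without its library labelled gtr-1 RNAi. With the block, leaving out a library rests on the same remaining pairs as leaving out its batch. Without the replicate block the log2 fold change was -0.12 for sqt-3, -0.18 for dpy-17, -0.0026 for dpy-4 and -0.001 for dpy-13, each above 0 with it. Leaving out a batch or library gave -0.10 to 0.44 for rol-6 and -0.23 to 0.98 for dpy-17, the 2 members whose sign changed. Over all genes, 14 called higher and 0 lower became 132 and 69 with DESeq2 size factors, 244 and 96 in DESeq2, 6 and 0 with a minimum count of 50, 123 and 42 with no filter, 1 and 0 without the replicate block, and 79 and 35 at a threshold of 0.1. Leaving out batches or libraries gave 0 to 745 higher and 0 to 420 lower. The cause of these shifts was not tested. The batch term called 7 or 8 members in every setting tried. The permutation p of rol-6 was 0.75 over pairs and 0.5 over groups. Depth limits bli-1 and bli-2 most in 3 libraries, batch 4 of either treatment and batch 3 with the empty vector, at 12 to 75 counts. Other members were also low with the empty vector. sqt-1 had 53 and 55 counts and sqt-2 80 and 65 in batches 3 and 4, and dpy-5 had 64 and dpy-13 76 in batch 4.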

Other observations

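The authors' deposited batch-corrected values compress the range of most members. For dpy-13 the batch-corrected values were 2297, 2621 and 2550 under the gtr-1 RNAi label in batches 2, 3 and 4, against 3127, 1943 and 2253 with the empty vector, where the deposited normalized counts were 6146, 1070 and 435.7, against 7393, 186.9 and 80.3. The highest library was thus 1.61 times the lowest after correction and 92.1 times before it. For sqt-3 the batch-corrected values were 4853, 9761 and 8949 under the gtr-1 RNAi label, against 11447, 5330 and 6107 with the empty vector, so batch 2 still ran opposite to batches 3 and 4. For rol-6 they were 9155, 8352 and 7214, against 6720, 7626 and 8470. The sources used here do not say how the correction was made.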
